A study of Rattus norvegicus with 71 samples.

Results

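Pineal and photoreceptor genes were examined in the brains of postnatal day (PND) 2 rats exposed in utero to maternal autoantibodies. The set is a list of 31 symbols for melatonin synthesis, phototransduction and the transcription factors of both tissues, and 30 of them have a row in the deposited table of 17494 genes. Pde6g is not analysed here. The 31 symbols were selected with earlier results of these same animals in view, among them the fold changes and p-values of the CRMP1+CRMP2 comparison, in which Crx, Tph1 and Aipl1 stood out. Levels in the exposed animals and the comparisons with controls are therefore given as a description of the 30 genes, and no test is made over the list.

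RNA came from a coronal slice of brain that contained the hippocampal formation, with 1 library from each of 71 wild-type Sprague-Dawley pups (35 male and 36 female) of 27 litters. Dams were immunized before pregnancy with peptides in Freund's adjuvant, and control dams received the adjuvant with saline, so every dam had the adjuvant. Saline controls were 24 animals from 7 litters. MARA-AB (maternal autoantibody-related autism autoantibody) exposed pups are named by the antigens given to their dams: CRMP1+CRMP2 (8 pups, 4 litters), LDHA/B+CRMP1+STIP1 (25 pups, 9 litters), CRMP1+GDA (6 pups, 3 litters) and STIP1+NSE (8 pups, 4 litters). The sample titles divide the study into batch 1, with 12 controls beside 16 pups of LDHA/B+CRMP1+STIP1, and batch 2, with the remaining 12 controls, 9 pups of LDHA/B+CRMP1+STIP1 and the whole of the other 3 patterns. Pups of a litter share a dam, and animals are numbered here within their group.

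The pineal gland and the photoreceptors of the retina derive from neighbouring parts of the embryonic diencephalon and use much of the same molecular equipment. Pinealocytes convert tryptophan to serotonin and then to melatonin, which the gland releases at night. They also carry genes of the photoreceptor cascade, in which an opsin activates transducin, transducin activates phosphodiesterase 6, and the fall in cyclic GMP closes cyclic nucleotide-gated channels. The transcription factor Crx is shared by pinealocytes and photoreceptors, where it binds a short OTX-type motif upstream of many of these genes.

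Promoters are shown for 5 genes whose levels the results below turn on and that hold this motif, to show where it lies in each. RefSeq sequence of the rat build GRCr8 was found for 24 of the 30 genes, and the 250 bases before each start were searched on both strands for TAATCC or its reverse complement GGATTA, which is in capitals below.
Crx, chr1:85681853-85682102, minus strand: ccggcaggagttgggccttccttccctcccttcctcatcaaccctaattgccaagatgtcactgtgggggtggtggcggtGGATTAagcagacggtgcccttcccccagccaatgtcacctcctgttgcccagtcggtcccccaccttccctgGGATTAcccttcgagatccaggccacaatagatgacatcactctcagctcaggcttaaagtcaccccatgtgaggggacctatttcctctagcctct
Aanat, chr10:102326073-102326322, plus strand: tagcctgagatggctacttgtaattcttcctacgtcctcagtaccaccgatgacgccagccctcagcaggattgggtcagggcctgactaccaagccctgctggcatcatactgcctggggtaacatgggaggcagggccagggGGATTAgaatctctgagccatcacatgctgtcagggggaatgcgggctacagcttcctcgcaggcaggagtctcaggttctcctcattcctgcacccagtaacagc
Rbp3, chr16:9273537-9273786, plus strand: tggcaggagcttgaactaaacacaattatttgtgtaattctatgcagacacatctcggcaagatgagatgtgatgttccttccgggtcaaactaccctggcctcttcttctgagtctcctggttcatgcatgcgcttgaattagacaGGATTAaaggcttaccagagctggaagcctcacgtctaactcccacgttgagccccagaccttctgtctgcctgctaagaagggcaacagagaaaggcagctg
Aipl1, chr10:57163456-57163705, minus strand: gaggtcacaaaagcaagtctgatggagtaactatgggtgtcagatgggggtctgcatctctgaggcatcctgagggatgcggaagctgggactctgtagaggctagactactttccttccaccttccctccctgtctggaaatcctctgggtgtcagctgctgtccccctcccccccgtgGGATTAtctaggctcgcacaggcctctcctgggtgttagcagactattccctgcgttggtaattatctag
Prph2, chr9:21579075-21579324, minus strand: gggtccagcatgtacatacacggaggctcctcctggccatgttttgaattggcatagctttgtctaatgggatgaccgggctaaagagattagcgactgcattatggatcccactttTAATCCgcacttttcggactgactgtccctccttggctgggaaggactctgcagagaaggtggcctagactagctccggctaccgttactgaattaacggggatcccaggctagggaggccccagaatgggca
The motif was present in 9 of the 24 promoters (37.5%; Crx, Abca4, Gngt1, Opn1sw, Prph2, Aipl1, Aanat, Rbp3 and Cngb1), against 6.34% of all 33469 rat promoters of this length. Crx and Cngb1 each held 2 copies, which 0.287% of all promoters did. In Crx the first base of the copies lay at -170 and -97 from the start, in Aanat at -106, in Rbp3 at -103, in Prph2 at -133 and in Aipl1 at -70. The cyclic AMP response element TGACGTCA was in 2 of the 24 promoters (8.33%; Isl2 and Asmt), against 1.59% of all, and the E-box CACGTG was in 0 of the 24, against 5.59% of all. These matches describe letters in the sequence, and a promoter without a match says nothing about the factors that act on it.

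Of the 71 slices, 5 contained abundant Tph1 RNA, and the same 5 contained RNA of most of the other genes. Tph1, tryptophan hydroxylase of the pineal gland and gut, carries out the first step from tryptophan to serotonin and lies on chromosome 1 of rn7 at 97157409 to 97178344. It had 6813 counts in CRMP1+CRMP2 replicate 2, 1651 in STIP1+NSE replicate 5, 1427 in CRMP1+CRMP2 replicate 6, 1011 in CRMP1+GDA replicate 5 and 885 in STIP1+NSE replicate 3. No other animal exceeded 50 counts. In counts per 1000000 of the library (CPM; libraries held 24880182 to 36234952 counts) the level was 189, 59.8, 54.0, 30.3 and 30.7 in these 5 animals in the same order, and 0 to 1.67 with a median of 0.404 in the other 66. The gap between 50 and 885 counts is empty, so that 500 counts is used here only as a name for the 5 animals, set after their values were seen.

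These 5 animals were all of batch 2 and all MARA-AB exposed, 2 of the 8 CRMP1+CRMP2, 2 of the 8 STIP1+NSE and 1 of the 6 CRMP1+GDA animals. None of the 24 controls and none of the 25 LDHA/B+CRMP1+STIP1 animals was among them. They came from 5 different litters, 2 were female and 3 male, and each had a littermate of the other sex in the data. Those 5 littermates had 6 to 20 Tph1 counts and 0 Crx counts each. In bulk slices, more cells of a type and more RNA per cell cannot be told apart.

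**Figure D1:**
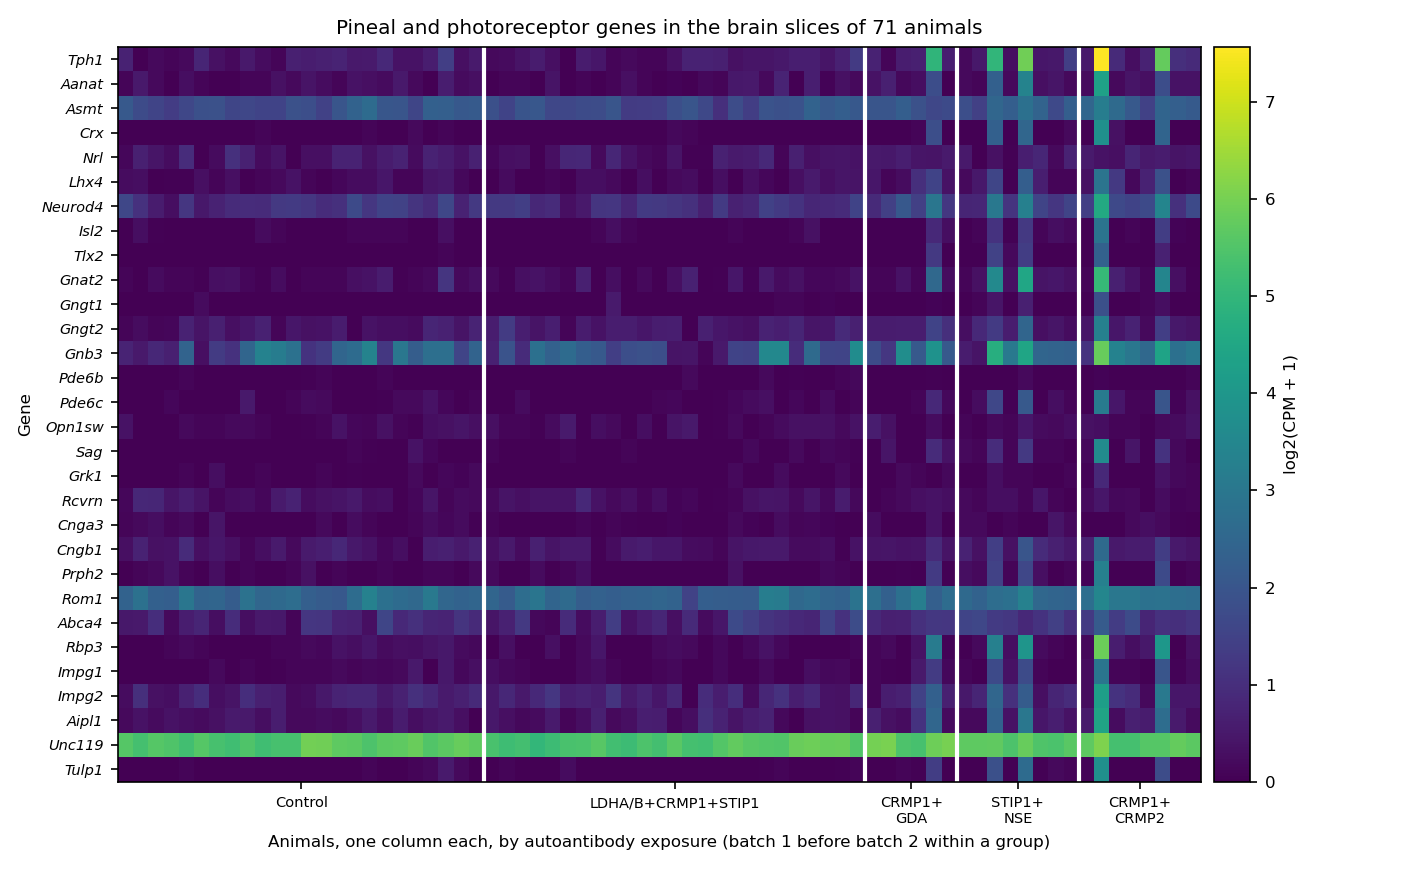
Level of the 30 genes (rows) in the slices of 71 animals (columns), as log2(CPM + 1), with white lines between the autoantibody groups. Bright columns mark CRMP1+GDA replicate 5, STIP1+NSE replicates 3 and 5, and CRMP1+CRMP2 replicates 2 and 6, while Asmt, Gnb3, Rom1 and Unc119 are coloured across most columns.

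Of the 30 genes, 17 were higher in each of these 5 animals than in all other 66. Gngt2 and Cngb1 were so in 4 of the 5, Grk1 in 3, Asmt and Gngt1 in 2, Pde6b, Rom1, Abca4 and Unc119 in 1, and Nrl, Opn1sw, Rcvrn and Cnga3 in 0. Over the 16071 genes with a count in any animal, 24 (0.149%) had all 5 above the other 66. CRMP1+CRMP2 replicate 2 was the highest of all 71 animals for 25 of the 30 genes, against 3.07% of the genes with a count. Since both the genes and the 5 animals were picked on these levels, the counts describe the pattern and carry no test.

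Among the genes of melatonin synthesis, Tph1 and Aanat were high in the 5 animals and at most 1.67 and 0.683 CPM elsewhere, while Asmt was present in every animal. Aanat, the acetyltransferase whose activity sets the nightly rhythm of melatonin, had 18.95 CPM in CRMP1+CRMP2 replicate 2, 9.42 in STIP1+NSE replicate 5, 4.02 in STIP1+NSE replicate 3, 2.42 in CRMP1+GDA replicate 5 and 2.42 in CRMP1+CRMP2 replicate 6. In the other 66 animals it ran from 0 to 0.683 CPM with a median of 0.148. Asmt, which methylates N-acetylserotonin to melatonin, ran from 1.54 to 5.32 CPM in controls (median 2.64) and from 1.03 to 8.15 over all 71 animals. It was 8.15 CPM in CRMP1+CRMP2 replicate 2 and 5.90 in STIP1+NSE replicate 5, the highest levels of their groups, but 2.07 in CRMP1+GDA replicate 5, below the control median. The relation between these enzymes thus varied: per 100 counts of Tph1, Aanat had 4.48 to 15.7 counts over the 5 animals and Asmt 4.32 to 15.3.

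The transcription factors were mostly restricted to the 5 slices, with the exceptions of Neurod4, present throughout, and Nrl, which did not follow the others. Crx (chromosome 1, 76540141 to 76545818) had 0 counts in 57 of the 71 animals. It had 12.9 CPM in CRMP1+CRMP2 replicate 2, 4.60 in STIP1+NSE replicate 5, 4.42 in CRMP1+CRMP2 replicate 6, 3.95 in STIP1+NSE replicate 3 and 2.51 in CRMP1+GDA replicate 5. No other animal was above 0.267 CPM, and no control was above 0.141 CPM.

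Lhx4, a LIM homeodomain factor, was 1.86 to 6.60 CPM in the 5 animals and at most 1.37 elsewhere. Isl2, another LIM homeodomain factor, was 0.838 to 6.51 CPM and at most 0.271 elsewhere. The homeobox factor Tlx2 was 0.605 to 4.07 CPM in the 5 and at most 0.148 in the other animals, and its lowest value, in CRMP1+CRMP2 replicate 6, was out of step with the 54.0 CPM of Tph1 there. Neurod4, a proneural basic helix-loop-helix factor, had a level of its own in the slice, 0.215 to 3.27 CPM in the other 66 animals, and was 6.85 to 23.3 CPM in the 5. Nrl, the leucine zipper factor that commits retinal precursors to the rod fate, was 0.277 to 0.543 CPM in the 5 animals and 0 to 1.07 in the others, and was highest in a control.

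Of the transducin subunits, Gnat2 and Gnb3 were high in the 5 animals, and the γ subunits less regularly so. Gnat2, the α subunit of cone transducin, had 32.8 CPM in CRMP1+CRMP2 replicate 2, 21.4 in STIP1+NSE replicate 5, 10.9 in STIP1+NSE replicate 3, 9.91 in CRMP1+CRMP2 replicate 6 and 4.85 in CRMP1+GDA replicate 5, against 0 to 1.22 in the other 66. Gnb3, the β subunit used by cones, was 13.6 to 55.4 CPM in the 5. It was also detected in most other slices, at 0.0652 to 12.0 CPM with a median of 3.29. Gngt2, the cone γ subunit, was 8.76 CPM in CRMP1+CRMP2 replicate 2 and 1.42 in STIP1+NSE replicate 3, the latter within the range of the other 66 animals, which reached 1.49. Gngt1, the rod γ subunit, was 2.63 CPM in CRMP1+CRMP2 replicate 2 and at most 0.580 in any other animal.

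Among phosphodiesterase 6 subunits, Pde6c, the catalytic subunit of cones, was 7.87 CPM in CRMP1+CRMP2 replicate 2, 3.33 in STIP1+NSE replicate 5, 3.03 in CRMP1+CRMP2 replicate 6, 2.05 in STIP1+NSE replicate 3 and 0.838 in CRMP1+GDA replicate 5. The other 66 animals had at most 0.422 CPM. Pde6b, a catalytic subunit of rods, stayed at or below 0.145 CPM in all 71 animals, near the limit that 3 counts set (0.0828 to 0.121 CPM by library). A difference of Pde6b between animals was not detectable at this depth.

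The opsin and the proteins that end its signal did not move as a block. Sag, the arrestin of rods, was 11.6 CPM in CRMP1+CRMP2 replicate 2, between 0.898 and 1.38 in the other 4 animals with over 500 Tph1 counts, and at most 0.337 elsewhere. Grk1, a kinase that ends the light response, was 0.831 CPM in CRMP1+CRMP2 replicate 2 and 0 in CRMP1+GDA replicate 5. Opn1sw, the short-wavelength cone opsin, was 0.139 to 0.362 CPM in the 5 animals, within the 0 to 0.516 of the others. Rcvrn, recoverin, which holds back Grk1 in the dark, was 0.0724 to 0.388 CPM in the 5 and reached 0.825 in an LDHA/B+CRMP1+STIP1 animal. For Opn1sw and Rcvrn no animal of the 5 stood above the rest.

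Of the channel subunits, Cngb1 of the rod channel was 5.18 CPM in CRMP1+CRMP2 replicate 2, 3.01 in STIP1+NSE replicate 5, 1.66 in STIP1+NSE replicate 3 and 1.59 in CRMP1+CRMP2 replicate 6. Its 0.868 CPM in CRMP1+GDA replicate 5 was below the highest of the other 66 animals, a control at 0.894. Cnga3 of the cone channel was at most 0.341 CPM in any animal and had 0 counts in CRMP1+CRMP2 replicate 2, which allows up to 0.0831 CPM at its floor of 3 counts.

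The carriers and matrix proteins that surround the photoreceptor outer segment were among the clearest. Rbp3 (chromosome 16, 9267538 to 9276006), the retinoid carrier of the space around outer segments, had 57.5 CPM in CRMP1+CRMP2 replicate 2, 15.1 in CRMP1+CRMP2 replicate 6, 14.4 in STIP1+NSE replicate 5, 8.81 in STIP1+NSE replicate 3 and 7.93 in CRMP1+GDA replicate 5, against at most 0.533 elsewhere. Impg1 and Impg2, proteoglycans of the same matrix, were 1.50 to 6.71 and 3.62 to 17.9 CPM in the 5, and at most 0.430 and 1.76 in the others. Prph2, a tetraspanin that shapes the disc rim, was 1.44 to 8.87 CPM in the 5 and at most 0.287 elsewhere.

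Rom1, the partner of Prph2 in the disc rim, behaved differently, with 1.82 to 9.04 CPM in the other 66 animals and 3.86 to 10.1 in the 5. Abca4, the flippase that clears retinal from discs, was 0.833 to 3.46 CPM in the 5, and only CRMP1+CRMP2 replicate 2 lay above the 2.40 CPM that an LDHA/B+CRMP1+STIP1 animal reached.

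Of the chaperones and trafficking proteins, Aipl1 (chromosome 10, 56655693 to 56664922), the chaperone of phosphodiesterase 6, was 20.2 CPM in CRMP1+CRMP2 replicate 2, 6.99 in STIP1+NSE replicate 5, 5.56 in CRMP1+CRMP2 replicate 6, 4.61 in CRMP1+GDA replicate 5 and 4.23 in STIP1+NSE replicate 3. No other animal exceeded 1.15 CPM. Tulp1, a tubby-like protein that photoreceptors need for transport to the outer segment, was 1.62 to 12.7 CPM in the 5 and at most 0.463 elsewhere. Unc119, which carries lipid-anchored proteins such as transducin, was 31.4 to 68.4 CPM over all 71 animals, with the 5 between 46.4 and 68.4.

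**Figure D2:**
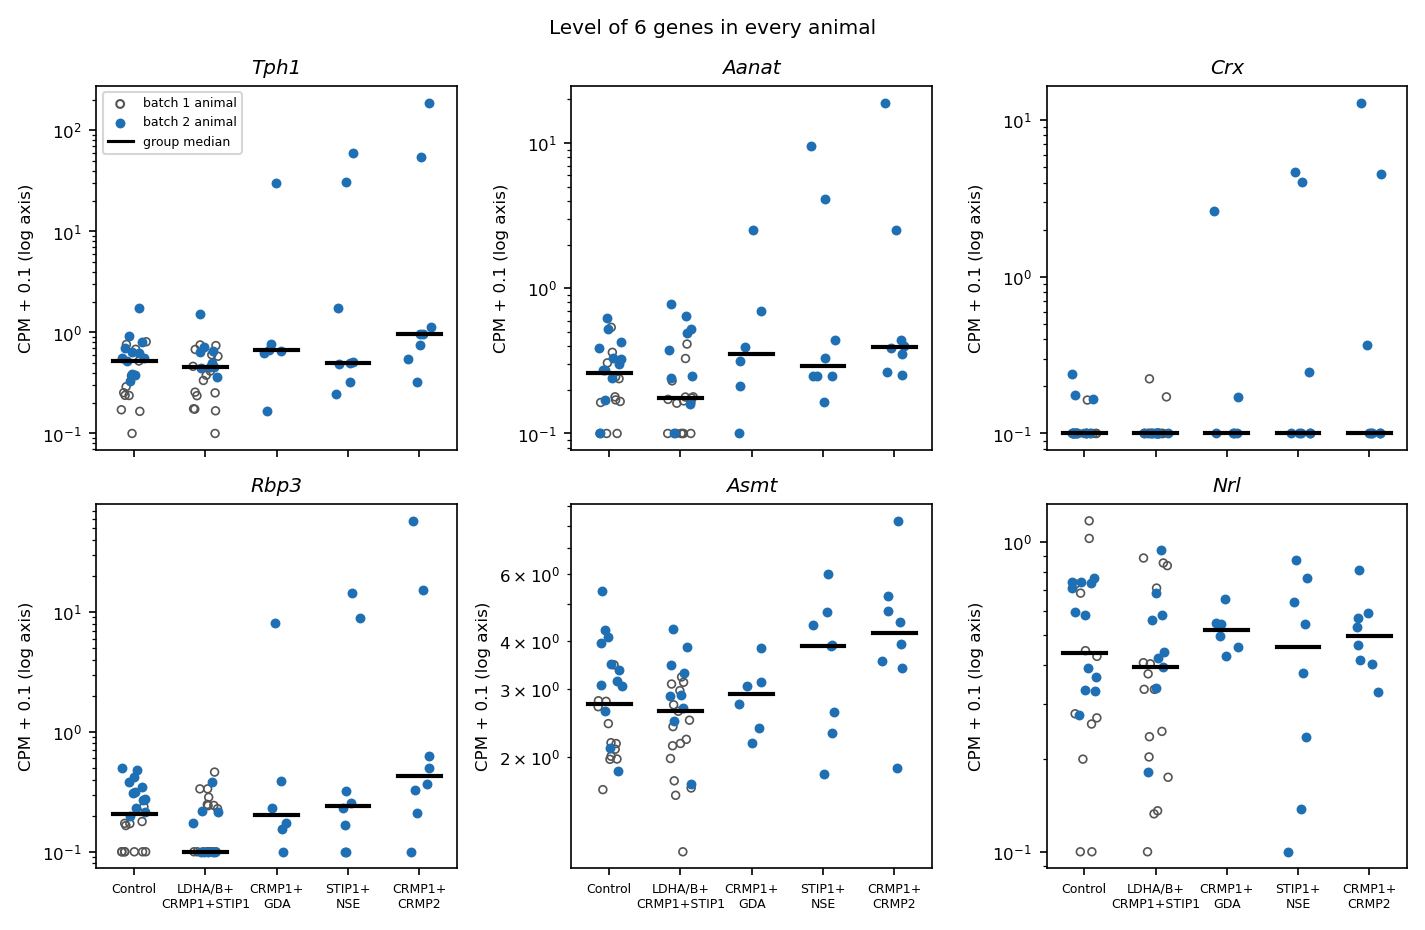
CPM + 0.1 on a log axis for Tph1, Aanat, Crx, Rbp3, Asmt and Nrl in every animal by autoantibody group, with open points for batch 1, filled points for batch 2 and a black line at the group median. For Tph1, Aanat, Crx and Rbp3 the 5 animals of the 3 groups at the right stand apart from all others, for Asmt and Nrl the groups overlap, and the medians of Crx are 0 CPM in all 5 groups.

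In the 66 animals outside these 5, a few genes of the set had a level of their own. Unc119, Rom1 and Asmt were over 1 CPM in all 66, Gnb3 in 52, Neurod4 in 42 and Abca4 in 28. Impg2 was over 1 CPM in 8 of the 66, Tph1 in 4, and Lhx4, Gngt2 and Aipl1 in 2. Opn1sw, Rcvrn, Pde6b, Grk1 and Cnga3 were over 1 CPM in 0 of all 71 animals, and Nrl in 1.

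Levels between genes were compared as reads per kilobase of exon per 1000000 counts (RPKM). In CRMP1+CRMP2 replicate 2 the order began with Unc119 at 54.6 RPKM, Tph1 at 48.4, Gnb3 at 35.6, Gnat2 at 21.5, Gngt2 at 15.8 and Rbp3 at 15.2. Aanat and Crx followed at 14.5 and 14.3 RPKM. Unc119 was first in all 5 animals, and Tph1, Gnb3 and Gnat2 were within the first 5 places in each. At the lower end, Pde6b, Cnga3, Opn1sw, Grk1, Rcvrn and Nrl took places 21 to 30 in all 5, with at most 0.758 RPKM.

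**Figure D3:**
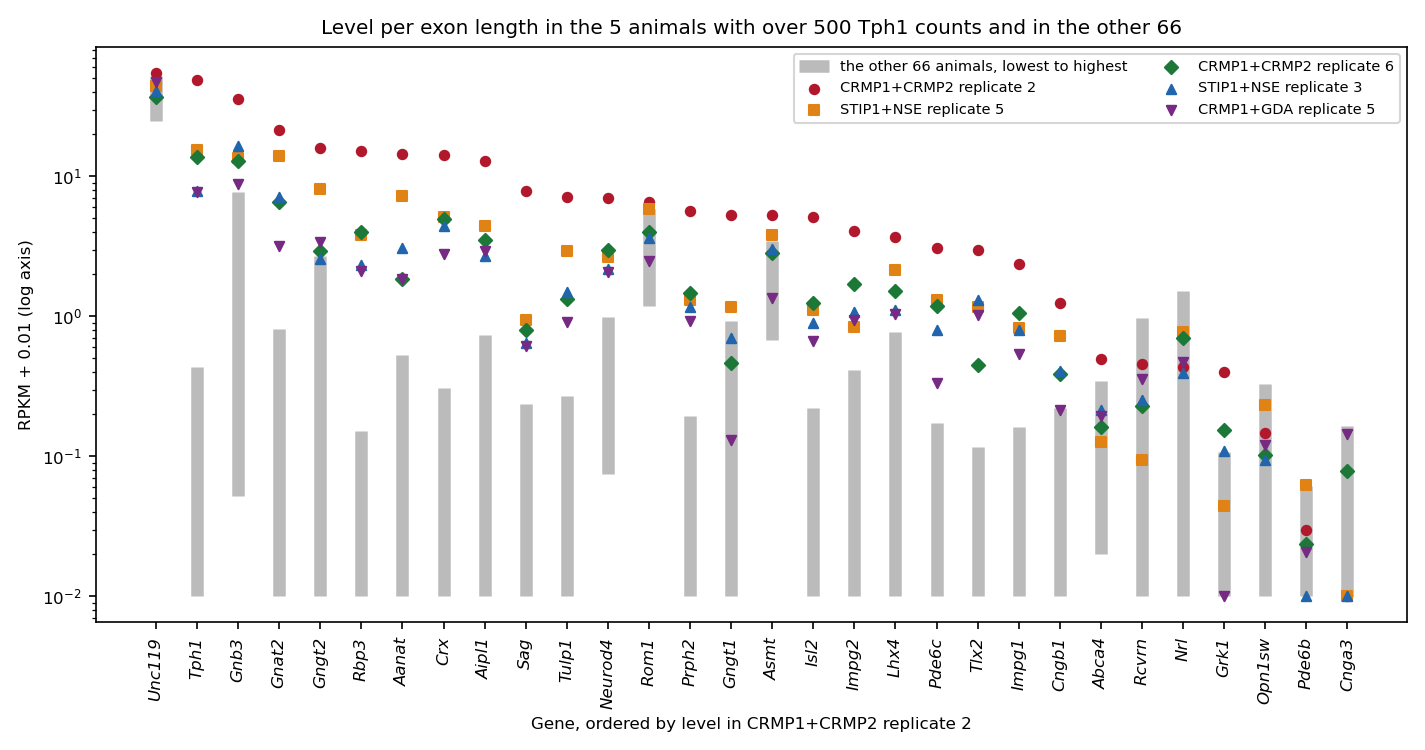
RPKM + 0.01 on a log axis for the 30 genes, ordered by CRMP1+CRMP2 replicate 2, with 1 symbol for each of the 5 animals with over 500 Tph1 counts and grey bars from the lowest to the highest of the other 66. Symbols lie above the bars for 17 genes in all 5 animals, and inside them for Nrl, Opn1sw, Rcvrn and Cnga3.

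Scaled to Tph1 within an animal, some genes kept a near-constant proportion although Tph1 itself differed by more than 6-fold between the 5 animals. Rbp3 had 24.0 to 30.4 counts per 100 counts of Tph1, a range of 1.27-fold. The corresponding ranges were 10.3 to 15.2 counts for Aipl1 (1.48-fold), 2.36 to 3.73 for Isl2 (1.58-fold), 3.39 to 5.88 for Prph2 (1.73-fold), 3.49 to 6.44 for Lhx4 (1.84-fold) and 6.81 to 12.9 for Crx (1.89-fold). Gnat2 spread further, with 16.02 to 35.7 counts (2.23-fold), and Tlx2 with 1.12 to 5.88 (5.24-fold). Unc119 had 36.2 counts per 100 of Tph1 in CRMP1+CRMP2 replicate 2 and 195 in CRMP1+GDA replicate 5, the animals of the 5 with the highest and the lowest Tph1 in CPM. These are raw counts, so the proportions contain gene length, and they rest on 1 library per animal.

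Each pattern was set against the 24 controls with edgeR's quasi-likelihood test over all genes that passed a filter of over 1 CPM in at least 2 animals, with the first surrogate variable as covariate and FDR < 0.1. All 4 comparisons use the same 24 controls. Which genes could be tested depended on the 5 animals themselves: 22 of the 30 genes passed in CRMP1+CRMP2, and 8 did once the 2 animals with over 500 Tph1 counts were left out. The log2 fold changes below are therefore a description of these animals.

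In CRMP1+CRMP2, 20 of the 22 genes were called, all of them higher, where 11.4% of the 12691 genes tested were called and 4.83% were called higher. The median log2 fold change of the 22 was 3.71, against 0.0073 over all genes. Controls had 0 to 0.141 CPM of Crx and CRMP1+CRMP2 animals 0 to 12.9 with a median of 0, for a log2 fold change of 7.33 (SE 0.90, n = 8 against 24, edgeR adjusted p = 3.1e-05). Sag had 6.09 (SE 0.84), Tph1 6.01 (SE 0.76), Rbp3 5.98 (SE 0.80) and Tulp1 5.23 (SE 0.92) on the log2 scale. Gnat2 followed with 4.81 (SE 0.75), Isl2 with 4.52 (SE 0.78), Pde6c with 4.33 (SE 0.71) and Prph2 with 4.32 (SE 0.75). Aanat had 3.84 (SE 0.64), Impg1 3.75 (SE 0.69), Aipl1 3.66 (SE 0.50) and Lhx4 3.30 (SE 0.57).

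The other 7 called genes had smaller fold changes. Impg2 had 2.58 (SE 0.50), Neurod4 2.20 (SE 0.37), Gngt2 2.19 (SE 0.49), Gnb3 1.89 (SE 0.50), Cngb1 1.62 (SE 0.41), Abca4 1.09 (SE 0.32) and Asmt 0.59 (SE 0.19) on the log2 scale. Rom1, with 0.38 (SE 0.15, edgeR adjusted p = 0.11), and Unc119, with 0.01 (SE 0.08, edgeR adjusted p = 0.97), were not called.

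The number of listed genes called fell when replicates 2 and 6 or their litters were left out. Without the litter of replicate 2 (litter 1) 5 genes were called, and without that of replicate 6 (litter 3) 8 were. The number called over all genes is not given for these left-out litters, so a drop of the list alone cannot be read from them. Without replicate 2, 10 of the 30 genes passed the filter and 4 were called. Without replicates 2 and 6, an alternative chosen after seeing the data, 8 passed, 0 were called and 0 had an unadjusted p under 0.05. Over all genes, 1445 of 12691 were called with every animal, 1392 of 12665 without replicate 2 and 322 of 12658 without both. Within batch 2 alone, 3 of 22 were called, beside 127 of 12605 over all genes. With counts summed per litter 0 of 19 were called and 18 had an unadjusted p under 0.05, where over all 12363 genes 0 were called and 1572 were under 0.05. In a limma voom fit with a random effect for litter 0 of 22 were called and 17 were under 0.05, where 33 of 12691 genes were called and 1957 were under 0.05.

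In STIP1+NSE, 6 of the 22 genes tested were called, all of them higher, against 0.0474% of the 12660 genes tested, and the same 0.0474% were called higher. These were all the genes called in that comparison. Tlx2 had a log2 fold change of 5.98 (SE 1.00), Crx of 5.72 (SE 1.01), Tph1 of 4.43 (SE 0.80), Gnat2 of 4.11 (SE 0.78), Rbp3 of 3.86 (SE 0.81) and Aipl1 of 2.76 (SE 0.55), with edgeR adjusted p between 0.010 and 0.086. Tulp1 had 3.81 (SE 0.83, edgeR adjusted p = 0.11) and Aanat 2.99 (SE 0.68, edgeR adjusted p = 0.19). Tph1 ran from 0.148 to 59.8 CPM in this group with a median of 0.400, and 6 of its 8 animals had at most 1.67 CPM. Without replicate 5, and without replicates 3 and 5, 0 genes of the list were called, with 4 of 9 and 0 of 8 tested at an unadjusted p under 0.05, against 449 of 12637 and 287 of 12621 over all genes. Leaving out litter 1, which held neither animal, gave 11 calls, and leaving out litter 2, that of replicate 3, gave 2. For these left-out litters, too, the number called over all genes is not given. In batch 2 alone, with batch and sex as covariates, with counts summed per litter and with the litter as a random effect, 0 were called as well, with 4 to 17 of the genes at an unadjusted p under 0.05. Over all genes these fits also called 0, with 170 to 334 under 0.05.

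In CRMP1+GDA, 0 of the 12 genes tested were called in a comparison where 0% of the 12641 genes were, and 5 of the 12 had an unadjusted p under 0.05, as 3.65% of all genes did. DESeq2 also called 0, with 5 under 0.05. Tph1 was 30.3 CPM in replicate 5 and at most 0.664 in the other 5 animals, with a log2 fold change of 2.80 (SE 0.81, edgeR adjusted p = 0.999). Without replicate 5, 7 genes passed the filter and 0 had an unadjusted p under 0.05, against 333 of 12622 over all genes.

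In LDHA/B+CRMP1+STIP1, 0 of the 8 genes tested were called, where 0.0157% of the 12700 genes were, and 1 had an unadjusted p under 0.05 (Abca4, log2 fold change 0.56, SE 0.26), as 7.17% of all genes did. DESeq2 called 0 of the 8, with 1 under 0.05. Tph1 ran from 0 to 1.44 CPM in the 25 animals with a median of 0.350, and from 0 to 1.65 in controls with a median of 0.425, so the groups overlapped across their ranges (log2 fold change -0.02, SE 0.32).

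**Figure D4:**
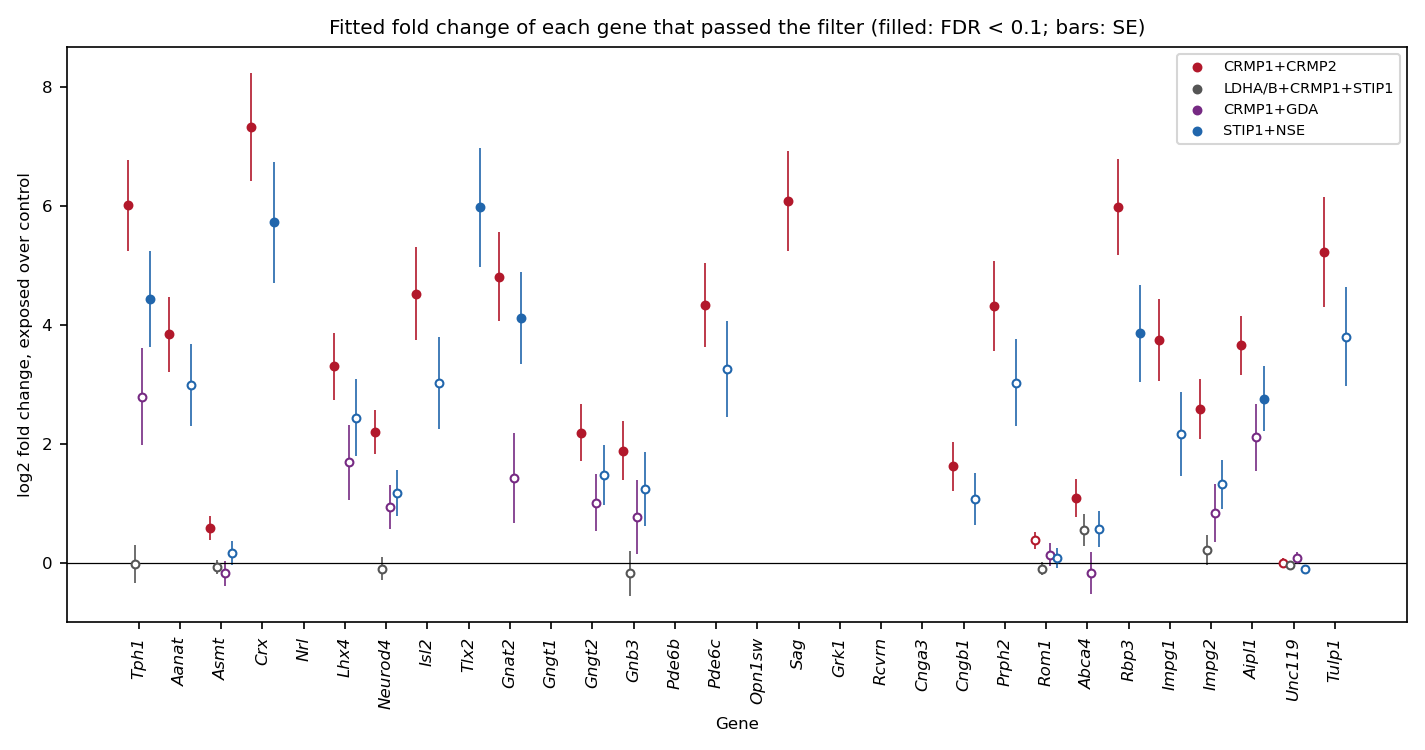
Log2 fold change of exposed over control animals (points; bars are the standard error) for each gene that passed the filter, by pattern, with filled points for FDR < 0.1. CRMP1+CRMP2 points are filled for 20 genes and STIP1+NSE points for 6, while all points of LDHA/B+CRMP1+STIP1 and CRMP1+GDA are open.

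With all 47 MARA-AB exposed animals against the 24 controls, and genes of at least 1 CPM in at least 8 animals, 8 of the 30 genes were tested and 1 was called. Over the 12477 genes tested 0.0321% were called, all of them higher (0.0321%). The called gene was Tph1, with a log2 fold change of 4.07 (SE 0.89, edgeR adjusted p = 0.0999), at the edge of the threshold. It was at most 1.67 CPM in 42 of the 47 exposed animals. Without the 5 animals, 0 of the 7 genes tested were called and 1 had an unadjusted p under 0.05, against 1020 of 12452 over all genes.

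Controls of batch 2 were set against controls of batch 1, animals without exposure that include none of the 5 slices. Of the 7 genes tested 3 were called, all higher in batch 2, where 41.5% of the 12565 genes tested were called and 21.3% were called higher, so the count is close to that of genes at large and is no result about the list. Unc119 had a median of 40.4 CPM in the 12 batch 1 controls and 51.0 in the 12 of batch 2 (log2 difference 0.29, SE 0.06, edgeR adjusted p = 0.00028). Asmt had 2.07 and 3.15 CPM (log2 difference 0.52, SE 0.17, edgeR adjusted p = 0.018), and Abca4 had 0.418 and 0.847 (log2 difference 1.03, SE 0.34, edgeR adjusted p = 0.021). Tph1 was below the filter, with a median of 0.172 CPM in batch 1 and 0.492 in batch 2.

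Between females and males, with batch and autoantibody label in the model, 0 of 23 genes were called by edgeR and 0 had an unadjusted p under 0.05, where 0.0624% of 12816 genes were called and 4.69% had an unadjusted p under 0.05. DESeq2 also called 0, with 1 under 0.05. The log2 difference of Tph1, female over male, was -0.30 with an SE of 0.68.

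Markers of the tissues that the slice could hold were listed beside the set. Among 18 other pineal genes in the table, 9 were highest in CRMP1+CRMP2 replicate 2, against 3.07% of all genes with a count, and 1 (5.56%; Bsx) was higher in all 5 animals than in the other 66, against 0.149%. Otx2, which acts upstream of Crx, was 20.1 to 37.2 CPM in the 5 animals and at most 22.3 in the others. It had a level of its own in the other 66, with a median of 9.30 CPM. Bsx, a homeobox factor, was 2.64 to 6.96 CPM in the 5 and at most 2.59 elsewhere. Gch1, which makes the cofactor of tryptophan hydroxylase, was 10.3 CPM in replicate 2 and at most 5.88 in any other animal. The adrenergic receptor gene Adrb1, through which night-time noradrenaline reaches the gland, was 19.3 CPM in replicate 2 and 5.11 to 8.11 in the other 4, and the other 66 reached 13.5. Rorb, a nuclear receptor, was 27.5 CPM in replicate 2 and 8.23 to 15.4 in the other 4, below the median of 18.7 in the other 66 animals. Dio2, a thyroid hormone deiodinase, was 10.6 to 15.2 CPM in the 5, also below the median of the other 66, which was 18.4. Pax6, of the same list, was 5.79 CPM in replicate 2, the lowest of all animals, and 11.5 to 18.8 in the other 4. The list summed to 208 CPM in CRMP1+CRMP2 replicate 2, 185 in CRMP1+CRMP2 replicate 6 and 164 in STIP1+NSE replicate 5. It summed to 155 in CRMP1+GDA replicate 5 and 142 in STIP1+NSE replicate 3, within the 103 to 158 of the other 66. In the CRMP1+CRMP2 fit 6 of the 14 other pineal genes tested were called higher, among them Bsx, Chrnb4, Gch1 and Otx2, and 0 lower, where 4.83% of all genes tested were called higher.

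Genes that define retina rather than pineal gland did not stand out in the 5 animals. Opn1mw was at most 0.0717 CPM, and Pde6a at most 0.422. Of the 8 retina-defining genes measured, 0 were highest in CRMP1+CRMP2 replicate 2, and their summed level was 39.9 to 50.2 CPM in the 5 animals and 33.4 to 68.1 in the others, most of it Rlbp1, which glia of the brain also express. Of 16 other photoreceptor genes 3 (18.75%) were highest in CRMP1+CRMP2 replicate 2, against 3.07% of all genes with a count. Guca1b, an activator of guanylate cyclase, was 10.4 CPM there and at most 2.46 in any other animal. Cngb3, a cone channel subunit, was 0.555 to 2.83 CPM in the 5 and at most 0.432 elsewhere. Rgs9, Rdh12 and Cabp4 were 10.9, 2.11 and 3.38 CPM in replicate 2, below the medians of 14.6, 2.82 and 3.52 in the other 66. The list summed to 1104 to 1261 CPM in the 5 animals, within the 1041 to 1319 of the others, most of it Gnb1.

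Tph2, the tryptophan hydroxylase of serotonin neurons, was 0.166 to 3.16 CPM in the 5 animals and reached 13.7 in CRMP1+CRMP2 replicate 3, an animal with 23 Tph1 counts. It was called higher in the CRMP1+CRMP2 fit (log2 fold change 1.71, SE 0.45, edgeR adjusted p = 0.027), 1 of 2 serotonin neuron markers tested there. Summed brain serotonin markers were 1.69 CPM in CRMP1+CRMP2 replicate 2 and 12.0 to 19.2 in the other 4. Over all animals they ran up to 54.0 CPM.

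Neighbouring tissues differed among the 5 slices. The 8 choroid plexus markers summed to 3326 CPM in CRMP1+CRMP2 replicate 2, the highest of all 71 animals, and to 504 to 1516 in the other 4, where controls ran from 5.05 to 2921. The 7 meningeal markers summed to 1047, 987 and 948 CPM in CRMP1+CRMP2 replicate 2, CRMP1+GDA replicate 5 and STIP1+NSE replicate 3, above the 826 that any of the other 66 reached, but to 467 and 294 in CRMP1+CRMP2 replicate 6 and STIP1+NSE replicate 5. The 4 thalamus markers in the table summed to 61.0 CPM in CRMP1+CRMP2 replicate 2 and to 512 to 804 in the other 4, over a range of 46.3 to 1022 in the other 66 animals. Tcf7l2, the main thalamic factor among them, was 15.1 CPM in replicate 2 and 340 to 535 in the other 4. Sspo, the secreted product of the subcommissural organ next to the pineal stalk, was 7.23 to 32.3 CPM in the 5 and 0 to 48.7 in the others. Of these lists, 7 of 8 choroid plexus genes were called higher in the CRMP1+CRMP2 fit, and 0 of 7 meningeal, 0 of 4 thalamus and 0 of 3 habenula genes were called, where 11.4% of all genes tested were called and 4.83% were called higher. Their part in the levels of the pineal and photoreceptor genes was not tested.

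**Figure D5:**
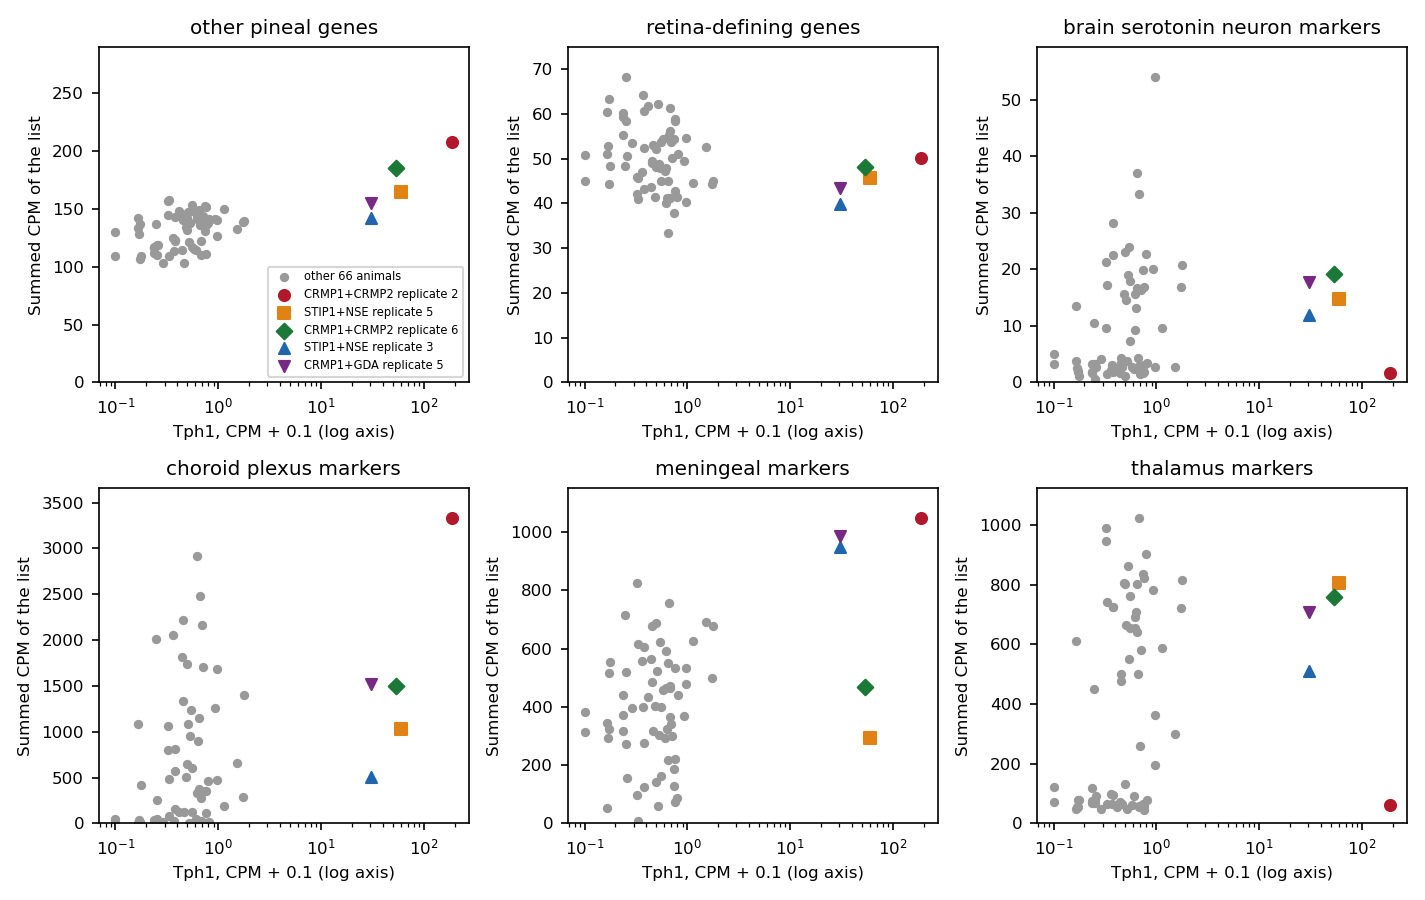
Summed CPM of 6 marker lists against Tph1 (CPM + 0.1, log axis), with grey points for 66 animals and symbols for the 5 with over 500 Tph1 counts. Other pineal genes are highest in CRMP1+CRMP2 replicate 2 but within the range of the grey points in STIP1+NSE replicate 3 and CRMP1+GDA replicate 5. Retina-defining genes lie within that range in all 5, and CRMP1+CRMP2 replicate 2 has the highest choroid plexus sum and a thalamus sum of 61.0 CPM.

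Controls of batch 2 also differed from controls of batch 1 in these lists. All 8 choroid plexus, all 4 thalamus genes and Sspo were called higher in batch 2. Over all genes tested 41.5% were called and 21.3% were called higher. Otx2, Bsx, Gch1 and 4 further genes of the other pineal list were higher as well, with 3 of that list lower. Cortex and hippocampus markers had 1 higher and 3 lower, habenula markers 2 and 1, and retina-defining genes 0 and 2. Serotonin neuron markers and other photoreceptor genes each had 1 higher and 0 lower, and meningeal markers 0 of either. Crx was 0 to 0.0634 CPM in controls of batch 1 and 0 to 0.141 in those of batch 2, and Tph1 reached 1.65 CPM at most among controls of both batches.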

How the data were processed

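RNA-seq libraries of 71 PND2 brain slices were analysed. The authors aligned paired-end reads to the rat build rn7 with STAR 2.5.4b and counted them per gene with featureCounts; the deposited table holds unnormalized counts, and the authors' table also gives the deposited gene length, in bases of exon. Counting options are not given in the sources used here. Among counts of 1 to 9, 74.5% were even (75.7% in the listed genes), so even values are in excess among low counts. Groups, litters and sexes came from the labels and batch from the titles; 0 columns were left without a sample.

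The members of the set, the marker lists and the tests were chosen with earlier results of these data known. The genes named are all 30 listed symbols with a row and, of each marker list, at most the 10 genes with the most CPM in CRMP1+CRMP2 replicate 2. Pax6 was named in addition, for its low level in that animal. CPM and RPKM were computed from the total counts and the deposited lengths, and intervals and floors (3 counts) cover counting error only. Tests used R 4.3.3, edgeR 4.0.16 (TMM, quasi-likelihood, Benjamini-Hochberg adjustment over all genes tested) and 1 surrogate variable from sva 3.50.0. Animals were the replicates, so p-values do not account for shared dams. The alternatives were DESeq2 1.42.0, median-ratio size factors, no filter, batch with sex in place of the surrogate variable, animals of batch 2 only, litter sums, a random effect of litter (limma 3.58.1), halved counts, each litter of a pattern left out, and animals left out. No 2 libraries of a group agreed within sampling noise (lowest chi-square 5.63 per gene). The fits of CRMP1+CRMP2 and of sex were run on simulated data with known changes, in genes with high counts. Those changes were shared by every animal of a group, without a litter effect. The simulation therefore says nothing about genes that are high in a few animals only. Promoters came from RefSeq (GRCr8), and rn7 coordinates from the deposited table; the 2 builds were not mixed.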

Additional observations from a re-analysis of the deposited data

Results flagged for a closer look

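In the groups of 6 and 8 animals, the gap between the highest animal and the next was over Dixon's 95% value for 22 of 30 genes in CRMP1+CRMP2, 16 of 30 in CRMP1+GDA and 6 of 30 in STIP1+NSE. The genes were chosen with the levels of these animals known and are high in the same animals. The counts are therefore a description and no test. Dixon's 95% value corresponds to about 1 in 20 groups by chance only for normally distributed values not chosen in this way. Genes such as Gngt1 and Pde6b had few or no counts in most animals, so their CPM were not of that kind. The share of 1 in 20 is therefore no yardstick for the numbers of genes given here. Controls and LDHA/B+CRMP1+STIP1, with over 10 animals each, were not examined in this way. Genes outside the list were not examined either, so no share over all genes stands beside these counts.

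In CRMP1+CRMP2 the animal was replicate 2 each time. Its levels were 189 CPM for Tph1, 18.95 for Aanat, 12.9 for Crx, 6.60 for Lhx4, 23.3 for Neurod4, 6.51 for Isl2 and 4.07 for Tlx2. Among transducin, phosphodiesterase and channel subunits they were 32.8 CPM for Gnat2, 2.63 for Gngt1, 8.76 for Gngt2, 55.4 for Gnb3, 7.87 for Pde6c and 5.18 for Cngb1. Sag had 11.6 CPM, Grk1 0.831, Prph2 8.87, Rom1 10.1, Rbp3 57.5, Impg1 6.71, Impg2 17.9, Aipl1 20.2 and Tulp1 12.7.

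In CRMP1+GDA the animal was replicate 5 each time, with 30.3 CPM for Tph1, 2.42 for Aanat, 2.51 for Crx, 0.838 for Isl2, 1.41 for Tlx2 and 4.85 for Gnat2. Pde6c had 0.838 CPM, Sag 0.898, Cngb1 0.868, Prph2 1.44, Rbp3 7.93, Impg1 1.50, Aipl1 4.61 and Tulp1 1.62. Gngt1 at 0.0599 CPM and Pde6b at 0.0299 CPM stood apart only because the other animals of the group were at 0, and both were below the floor of 3 counts.

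In STIP1+NSE replicate 5 stood apart with 9.42 CPM of Aanat, 4.49 of Gngt2, 0.145 of Pde6b and 9.02 of Rom1. The Pde6b value was 4 counts, near the floor of 3 counts, and the other animals of the group were at 0. Replicate 3 stood apart with 0.208 CPM of Grk1, and replicate 7, an animal with 12 Tph1 counts, with 0.339 CPM of Cnga3.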

How the results depend on the processing

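The number of listed genes called in CRMP1+CRMP2 was 20 as reported and lay between 14 and 23 with batch and sex as covariates, no filter, median-ratio size factors, DESeq2 or halved counts. It was 3 in batch 2 alone, 0 with counts summed per litter, 0 with the litter as a random effect, 5 to 21 with a litter of the pattern left out, 4 without replicate 2 and 0 without replicates 2 and 6. In STIP1+NSE it was 6 as reported and also with no filter, median-ratio size factors or halved counts. It was 3 by DESeq2 and 0 with batch and sex as covariates, in batch 2 alone, with counts summed per litter, with the litter as a random effect, without replicate 5 and without replicates 3 and 5, and it ran from 0 to 11 with a litter left out. For all exposed animals it was 1, also by DESeq2. It was 5 with no filter and 0 with batch and sex as covariates, batch 2 alone, median-ratio size factors, litter sums, a random effect of litter, halved counts, without CRMP1+CRMP2 replicate 2 or without the 5 animals. Between control batches it was 3, 8 with no filter, 1 with counts summed per litter and 1 with the litter as a random effect. It was 0 under every alternative run in CRMP1+GDA, LDHA/B+CRMP1+STIP1 and between sexes. Some counts, here and above, have no number over all genes beside them, as with DESeq2 or a litter left out. Such counts were not set against genes at large here, and nothing about the list alone is read from them. Leaving out the 5 animals, chosen after seeing the data, turned the log2 fold change of Impg2 in CRMP1+CRMP2 to -0.24 and that of Tph1 in STIP1+NSE to -0.15. For the other changes the cause was not tested. No paired analysis was possible because replicate numbers only name animals and each litter holds 1 exposure, where exposed animals are compared with controls. Most litters hold both sexes, and the reported comparison of females with males did not pair them by litter. At this depth, genes below about 3 counts in a library cannot be compared.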

Other observations

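Among the genes outside the list, 7 had all 5 animals with over 500 Tph1 counts above the other 66, a list chosen after the values were seen. Krt15, a keratin, ran from 2.29 to 10.4 CPM in the 5 and reached 0.615 elsewhere. Cplx4, a complexin of retinal ribbon synapses, ran from 0.347 to 2.16 CPM and reached 0.176 elsewhere. Neurog1, a proneural factor, ran from 0.299 to 0.998 CPM and reached 0.281 elsewhere. The other 4 were Lrit1, Cngb3, Esm1 and Bsx.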
